A study of Mus musculus with 4 samples.

Results

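Ion pumps, exchangers and chloride cotransporters were described in 2 populations of mouse retinal neurons. The genes are all those whose symbol starts with Atp1a, Atp1b, Atp2a, Atp2b, Atp2c, Slc4a, Slc8a, Slc9a, Slc12a or Slc24a followed by a digit, taken from probe sets that are annotated to exactly 1 gene. This gave 48 of 18193 genes and 109 probe sets of 45037, and the brightest probe set stood for each gene. The rule for genes used symbols only, but the members were chosen with earlier results of these data known. The brightest probe set was picked by measured intensity over the arrays of both groups. It also took in Slc4a1ap, Slc9a3r1 and Slc9a3r2, which are named after a transporter but are not themselves transporters.

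The neurons came from mouse pups at postnatal day 6, the progeny of males with the MP transgene and females without it, on a mixed C57Bl6 x CD1 background. MP amacrine cells carried the transgene's CFP fluorescence and the VC1.1 epitope, and MP bipolar cells carried CFP without VC1.1, after VC1.1-positive cells had been held back on a magnetic column. Both populations therefore shared the MP transgene, papain dissociation and sorting, and differed in cell type and in the column step. Replicates, 2 per group, were biological and did not share a litter. About 1000 cells went into each, and each was hybridised to 1 Affymetrix array. The promoter behind the MP transgene and the number of animals in a replicate are not given in the sources used here. Because each sample was bulk RNA, fewer cells of a type and less RNA per cell cannot be told apart.

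Neurons keep their ion gradients with a small set of transport families. The sodium pump, a catalytic alpha subunit with a beta subunit that carries it to the membrane, exports sodium and imports potassium. Calcium is returned to stores by SERCA pumps and removed from the cell by plasma membrane calcium pumps and by exchangers driven by sodium, while bicarbonate transporters and sodium/proton exchangers set the pH. The cotransporter NKCC1 (Slc12a2) brings chloride in and KCC2 (Slc12a5) takes it out, and their balance sets whether GABA and glycine depolarise or hyperpolarise a neuron. In the retina amacrine cells release GABA or glycine, and bipolar cells receive both.

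Before the values, the DNA ahead of 4 transcript starts is shown for the chloride exporter and for a strongly higher and a strongly lower member. Each sequence is the 250 bases ahead of a start listed in RefSeq (GRCm38.p6), on the strand of the gene. Capitals mark E-boxes, the letters CANNTG, which are bound by basic helix-loop-helix factors such as Neurod6. Slc12a5 is known to make its protein from alternative first exons, and both of its listed starts are shown. The windows are chr2:164960596-164960845 (plus strand) and chr2:164967738-164967987 (plus strand) for Slc12a5, chr9:96364432-96364681 (minus strand) for the upstream one of 2 listed starts of Atp1b3, and chr2:62046265-62046514 (plus strand) for the upstream one of 2 listed starts of Slc4a10.
Slc12a5, upstream start: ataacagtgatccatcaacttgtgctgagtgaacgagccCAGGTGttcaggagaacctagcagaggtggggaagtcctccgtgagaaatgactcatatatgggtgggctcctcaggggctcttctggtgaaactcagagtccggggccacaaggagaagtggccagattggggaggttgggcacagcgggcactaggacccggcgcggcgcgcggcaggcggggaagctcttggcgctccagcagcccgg
Slc12a5, downstream start: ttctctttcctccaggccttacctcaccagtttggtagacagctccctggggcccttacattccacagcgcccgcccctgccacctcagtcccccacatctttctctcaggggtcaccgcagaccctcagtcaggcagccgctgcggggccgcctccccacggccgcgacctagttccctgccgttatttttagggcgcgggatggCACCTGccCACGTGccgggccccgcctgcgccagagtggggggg
Atp1b3: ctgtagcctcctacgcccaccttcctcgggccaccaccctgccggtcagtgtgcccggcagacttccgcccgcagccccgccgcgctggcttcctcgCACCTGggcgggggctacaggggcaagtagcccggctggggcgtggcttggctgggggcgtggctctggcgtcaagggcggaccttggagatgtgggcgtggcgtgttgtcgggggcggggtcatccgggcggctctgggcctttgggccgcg
Slc4a10: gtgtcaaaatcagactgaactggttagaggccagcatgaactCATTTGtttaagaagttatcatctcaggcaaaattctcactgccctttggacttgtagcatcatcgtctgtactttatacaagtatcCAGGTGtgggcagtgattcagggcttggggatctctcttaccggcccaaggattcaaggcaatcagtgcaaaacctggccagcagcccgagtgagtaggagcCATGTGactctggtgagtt
The windows held 1, 2, 1 and 3 E-boxes in the order shown. An E-box stood in 34 of the 53 windows of the 38 members with a listed start and in 66.2% of all 32851 windows of the same length, so the members' share was near that of all genes. TAATCC, the letters read by Otx-type homeodomain factors, was searched on both strands too and was found in 3 of the 53 windows, against 6.25% of all windows, and in none of the 4 shown. These letters are a description of the windows and no evidence of binding.

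The labels held against the marker lists. Of 9 tested amacrine markers 8 were higher and none lower in MP amacrine cells, and of 10 tested bipolar markers 7 were lower and none higher. The summed intensity of the bipolar markers was 7671 to 8239 on amacrine arrays, against 18263 to 18574 on bipolar arrays. Much of the amacrine sum was Prdm8 (4600 and 4694, against 5360 and 5465 on bipolar arrays), which was not called. Isl1, also not called, was higher on amacrine arrays (1055 and 925, against 575 and 684). Fezf2 (38.9 and 24.1, against 1605 and 1760) and Scgn (143 and 103, against 1285 and 1398) were low on amacrine arrays. Rod photoreceptor markers were present in both groups (summed intensity 8837 to 13670 on amacrine and 9099 to 11022 on bipolar arrays, none of 5 tested called). Of the Müller glia markers 2 of 6 tested were higher in MP amacrine cells, with sums of 2699 to 2892 on amacrine and 2083 to 2498 on bipolar arrays. MP amacrine replicate 2 stood apart in RNA quality, where the 3-prime Gapdh probe set exceeded the 5-prime one by a log2 ratio of 3.21, against 1.78 on the other amacrine array and 1.95 and 2.0 on the bipolar arrays.

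Of the 48 genes, 29 lay above the array median on at least 2 of the 4 arrays and were tested, and 19 were too dim. A gene is called here when its limma p, adjusted by Benjamini-Hochberg over all 11583 tested genes, was under 0.05. Among the 29, 9 were lower and 1 was higher in MP amacrine cells. Across all tested genes 6.92% were lower and 6.54% higher, 13.5% in either direction. Intensities of the 2 groups did not overlap for 19 of the 29 members, 13 lower and 6 higher in amacrine cells, against 53.3% of all tested genes (29.1% lower and 24.2% higher). The median log2 fold change, MP amacrine minus MP bipolar on the log2(intensity + 16) scale, was -0.23 over the 29 members and -0.03 over all tested genes. All but 1 of the 29 lay above the median on arrays of both groups. The exception, Atp2b4, did so on amacrine arrays only. The number of members called lower was also 9 without MP amacrine replicate 2, where Slc24a3 lost its call and Slc9a7 gained one, but 5 without MP bipolar replicate 2.

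**Figure D1:**
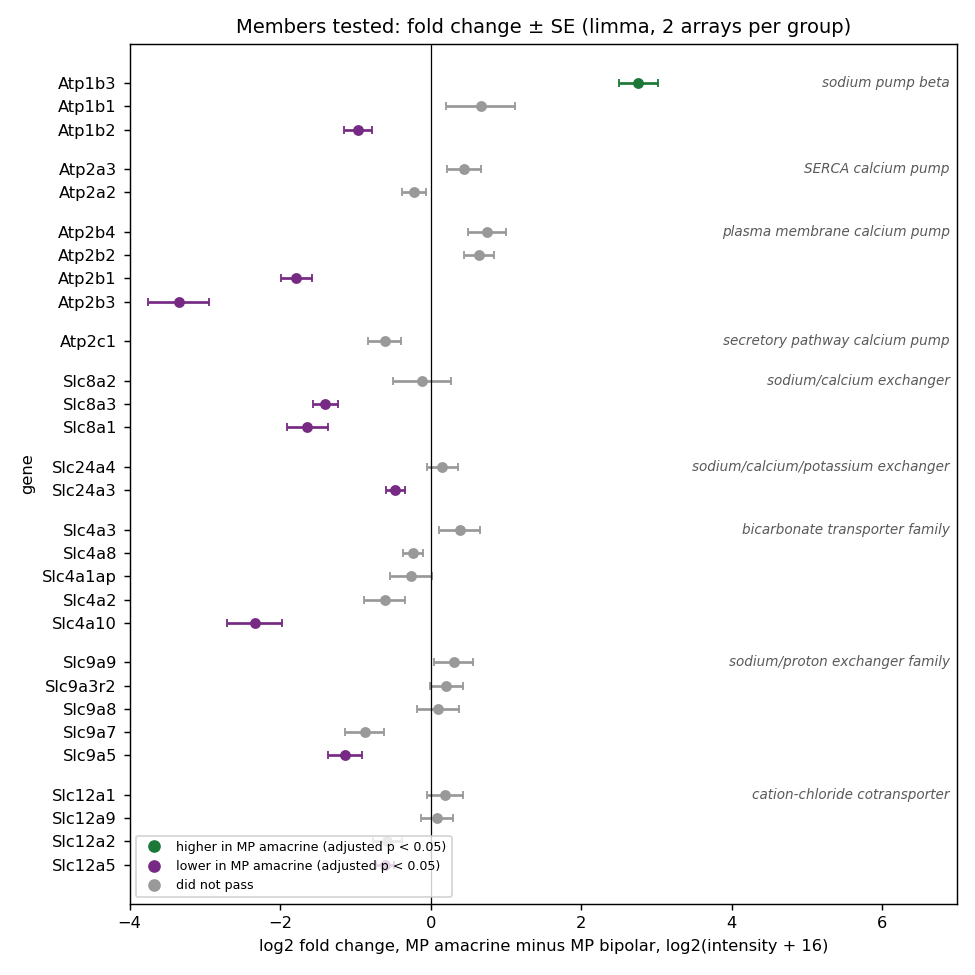
Log2 fold change (MP amacrine minus MP bipolar, log2(intensity + 16) scale, horizontal axis) of the 29 tested members by family, with bars of ± 1 SE from limma and 2 arrays per group. Colour shows whether the adjusted p was under 0.05. Atp1b3 stands alone at 2.76, and 9 members from -3.35 to -0.47 are called on the lower side.

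The beta subunits of the sodium pump moved in opposite directions. Atp1b3, a beta subunit found in many tissues, had intensities of 860 and 774 on the MP amacrine arrays, against 85.6 and 133 on the MP bipolar arrays. Both amacrine values lay far above both bipolar values, a ratio of group means of 7.47 and a log2 fold change of 2.76 (adjusted p = 3.10e-04 by limma, SE 0.26). The Atp1b3 value rests on 1 probe set. Atp1b2, which also acts as an adhesion molecule of glia in brain, had 751 and 714 on amacrine arrays, against 1293 and 1612 on bipolar arrays. It was lower on both amacrine arrays, with a log2 fold change of -0.96 (adjusted p = 0.0130, SE 0.19). The Müller glia markers, whose sums are given above, were mixed. Of 6 tested, 2 were called higher in amacrine cells. Clu, not called, was lower there (188 and 128, against 261 and 323 on bipolar arrays). The part of glia in the Atp1b2 value was not tested. The call of Atp1b2 was lost without MP bipolar replicate 2, with all its probe sets averaged and with no filter on dim genes.

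Taken within each array, the log2 value of Atp1b3 minus that of Atp1b2 was 0.19 and 0.11 in MP amacrine cells and -3.69 and -3.45 in MP bipolar cells. The group means of this difference lay 3.72 apart, with SDs of 0.05 in amacrine and 0.17 in bipolar cells (n = 2 each). This gap restates the 2 fold changes above, which have opposite signs, and is no separate support. Cycling progenitor markers were also higher in amacrine cells (summed intensity 610 and 890, against 272 and 216 on bipolar arrays, 1 of 1 tested called), and their part in the Atp1b3 difference was not tested. Microglia markers differed between arrays of the same group, with sums of 761 and 3001 on amacrine and 1280 and 178 on bipolar arrays. The part of microglia in it was not tested either.

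Atp1b1, the most widespread beta subunit of neurons, was carried by 1 array. Its intensity was 1433 and 449 on the amacrine arrays, against 536 and 469 on the bipolar arrays. The groups overlapped, and the log2 fold change of 0.66 (SE 0.46) did not pass (adjusted p = 0.450, limma). Without MP amacrine replicate 1 it was -0.16, and without MP amacrine replicate 2 it was 1.49 and passed. The next brightest of its 5 probe sets showed the same array, at 1218 and 382 in amacrine cells, against 358 and 321 in bipolar cells. The ganglion cell marker list (7 of 8 on the array, 0 of 5 tested higher and 1 lower) summed to 3831 and 1877 on amacrine arrays, against 2750 and 3628 on bipolar arrays. Within it the neurofilament gene Nefm had 1631 and 136 in amacrine cells, against 47.7 and 35.0 in bipolar cells. MP amacrine replicate 1 was high again. Thy1, the gene called lower, went the other way, with 806 and 1455 in amacrine cells, against 2462 and 3415 in bipolar cells. Horizontal cell markers summed to 807 and 551 on amacrine arrays, against 323 and 236 on bipolar arrays. The part of ganglion or horizontal cells in the Atp1b1 value was not tested. Atp1b4, and Atp1a4, an alpha subunit known from sperm, were too dim to be tested (group means from 1.0 to 7.98).

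Of 9 tested partners of the sodium pump, from 16 on the array, 3 were higher and 1 was lower in MP amacrine cells. Over all tested genes 6.54% were higher and 6.92% lower. This list and the other partner lists below were drawn up with earlier results of these data known. Their shares are therefore no blind comparison with all genes. Nkain1, which encodes a small protein that binds the pump, had a log2 fold change of 1.13 (SE 0.22). Fxyd4, a pump regulator of the FXYD family, had 0.99 (SE 0.26), and Ank3, the ankyrin that anchors pumps and channels to the membrane skeleton, had 0.52 (SE 0.11). Ckmt1, a mitochondrial creatine kinase, was lower (-1.07, SE 0.28). The adjusted p of these 4 lay between 0.0114 and 0.0454 (limma). The other FXYD gene tested, Fxyd6, had 205 and 101 in amacrine cells, against 95.5 and 122 in bipolar cells, and did not pass.

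**Figure D2:**
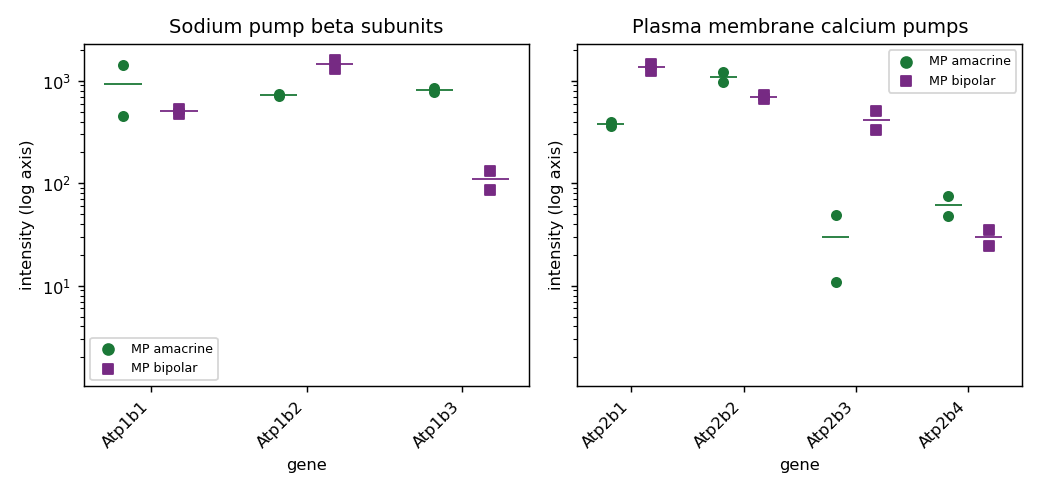
Intensity (log axis) on each array of the tested sodium pump beta subunits and of the plasma membrane calcium pumps, MP amacrine as green circles and MP bipolar as purple squares, with lines at the group means. Atp1b3 is high and Atp1b2, Atp2b1 and Atp2b3 are low in amacrine cells, while the 2 amacrine values of Atp1b1 lie apart. Heights of different genes cannot be compared, since probe sets differ in response.

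Of the 4 plasma membrane calcium pumps, 2 were lower in MP amacrine cells and 2 did not pass the test. Over all tested genes 6.92% were lower. Atp2b1, the most widely expressed of these pumps, had intensities of 365 and 394 in MP amacrine cells, against 1239 and 1460 in MP bipolar cells. Both amacrine values were less than those of either bipolar array, a log2 fold change of -1.78 (adjusted p = 8.43e-04 by limma, SE 0.20). Its 2 other probe sets gave -1.32 and -1.50 and were called too. Atp2b3, a pump mostly of neurons, had 48.5 and 10.8 in amacrine cells, against 330 and 503 in bipolar cells. It was near or below the array median in amacrine cells and clearly above it in bipolar cells, with a log2 fold change of -3.35 (adjusted p = 0.00117, SE 0.41). Its size depended on the offset, from -2.36 with 64 to -4.08 with 1. It also depended on the amacrine array, from -3.98 without MP amacrine replicate 1 to -2.71 without MP amacrine replicate 2. With its probe sets averaged it was -1.88, since the other probe set was dim. That one had 33.6 and 29.9 in amacrine cells, against 45.8 and 48.6 in bipolar cells.

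Atp2b2, a fast pump needed in the inner ear and in Purkinje cells, lay on the other side of zero. Its intensity was 1219 and 983 in amacrine cells, against 666 and 725 in bipolar cells. The groups did not overlap, but the log2 fold change of 0.64 (SE 0.20, 95% interval 0.18 to 1.11) did not pass the test across genes (adjusted p = 0.0796, limma), though it did after quantile or cyclic loess normalization. Atp2b4 had 48.0 and 75.5 in amacrine cells, against 24.6 and 35.3 in bipolar cells, and did not pass either (0.75, adjusted p = 0.101). Within each array the log2 value of Atp2b2 minus that of Atp2b1 was 1.70 and 1.28 in amacrine cells and -0.88 and -0.99 in bipolar cells. The group means of this difference lay 2.43 apart, with SDs of 0.29 and 0.08 (n = 2 each). This gap, too, only restates the fold changes of the 2 genes, which have opposite signs.

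Pumps of internal stores did not pass the test. Atp2a2, the common SERCA pump of neurons, had 2072 and 1729 in amacrine cells, against 2025 and 2397 in bipolar cells. The groups overlapped, with a log2 fold change of -0.22 (SE 0.16, 95% interval -0.58 to 0.15, adjusted p = 0.472), and its next brightest probe set gave 0.50. Atp2a3 (0.44, adjusted p = 0.295) and Atp2c1, a pump of the secretory pathway (-0.61, adjusted p = 0.120), did not pass. Atp2a1, the SERCA pump of fast muscle, and Atp2c2 were too dim, with group means of at most 13.1.

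Sodium/calcium exchangers were lower in MP amacrine cells in 2 of 3 genes, against 6.92% lower over all tested genes. Slc8a1 (NCX1) had intensities of 414 and 255 in amacrine cells, against 967 and 1127 in bipolar cells, and Slc8a3 (NCX3) had 1013 and 864 in amacrine cells, against 2308 and 2696 in bipolar cells. For both genes all amacrine values lay below all bipolar values. The log2 fold changes were -1.64 (adjusted p = 0.00511, SE 0.27) for Slc8a1 and -1.40 (adjusted p = 0.00112, SE 0.17) for Slc8a3 (limma). The only other Slc8a1 probe set above the filter, at 123 and 170 in amacrine cells and 306 and 379 in bipolar cells, was called in the same direction (-1.15). Slc8a2 (NCX2) had 49.8 and 41.7 in amacrine cells, against 26.4 and 88.1 in bipolar cells, and its direction was not settled (-0.11, 95% interval -1.0 to 0.78). The calls of Slc8a1 and Slc8a3 were the same when each array was left out in turn. That of Slc8a1 was lost with no filter on dim genes, and that of Slc8a3 with probe sets averaged.

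Exchangers that also use potassium differed less. Slc24a3 (NCKX3) had 2505 and 2594 in amacrine cells, against 3247 and 3853 in bipolar cells. It was lower on both amacrine arrays, with a log2 fold change of -0.47 (adjusted p = 0.0440 by limma, SE 0.12). This call was the least stable among the members, since it was lost under 11 of 18 alternatives, among them every omission of an array. Slc24a4 (NCKX4) gave 0.16 (adjusted p = 0.715). Slc24a1, the exchanger of rod outer segments, was too dim to be tested at 28.9 and 5.12 in amacrine cells, against 27.0 and 119 in bipolar cells. Its high array was MP bipolar replicate 2. Of the 6 rod markers on the array, the rod transducin gene Gnat1 was highest there too (120, against 17.6 to 24.95 on the others), while Nrl and Pde6b were lowest there (850 and 379), and the part of rods was not tested. Slc24a2, the cone and brain exchanger, was near the bottom of the scale on all arrays (1.2 to 11.4).

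Among other genes of calcium stores and calcium removal, a few were called. Of 19 tested, from 25 on the array, 3 were lower and 1 was higher in MP amacrine cells, against 13.5% called in either direction over all tested genes, and the median log2 fold change was 0.02. Ryr3, a ryanodine receptor that releases calcium from stores, had 76.5 and 76.2 in amacrine cells, against 492 and 459 in bipolar cells. It was low on both amacrine arrays, with a log2 fold change of -2.41 (adjusted p = 2.29e-04 by limma, SE 0.21). Ryr2, another ryanodine receptor, had -1.17 (SE 0.26), and Hpcal4, a neuronal calcium sensor, had -2.79 (SE 0.34). Orai2, a pore subunit of store-operated calcium entry, was the gene called on the higher side (1.14, SE 0.23). It was above the array median in amacrine cells only and so was tested through the group where it is high. Of the inositol trisphosphate receptors tested, Itpr2 gave 0.14 and Itpr3 gave 0.07, and neither passed.

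In the Slc4a group, 1 of 5 tested genes was called, against 13.5% of all tested genes, counting 4 bicarbonate transporters and an adaptor protein. Slc4a10, a neuronal transporter that couples sodium and bicarbonate entry to acid removal, had intensities of 320 and 188 in MP amacrine cells, against 930 and 1838 in MP bipolar cells. All amacrine values lay below all bipolar values, although the 2 arrays of each group also lay apart. The log2 fold change was -2.34 (adjusted p = 0.00406 by limma, SE 0.37), from -2.82 to -1.85 with each array left out in turn, and the call was lost with no filter on dim genes. Slc4a8, a related neuronal transporter driven by sodium, had 7223 and 5361 in amacrine cells, against 7106 and 7522 in bipolar cells, and did not pass (-0.23, adjusted p = 0.331). The omission of 1 array turned this, since Slc4a8 gave -0.45 and passed without MP amacrine replicate 1 (adjusted p = 0.00455), and -0.0174 without MP amacrine replicate 2. The 4 other probe sets of Slc4a8 had intensities of at most 50.8 on every array, so its value rests on 1 probe set.

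The anion exchangers Slc4a2 (-0.61, adjusted p = 0.217) and Slc4a3 (0.38, adjusted p = 0.450) did not pass. Slc4a1ap, an adaptor protein, gave -0.26 and its groups overlapped. Slc4a1, Slc4a4, Slc4a5, Slc4a9 and Slc4a11 were too dim. Among them are the anion exchanger of red blood cells (Slc4a1) and the sodium bicarbonate cotransporter of glia (Slc4a4), and their group means were at most 18.5.

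In the Slc9a group, 1 of 5 tested genes was called, against 13.5% of all tested genes, counting 4 sodium/proton exchangers and a scaffold. Slc9a5 (NHE5), an exchanger mostly of brain neurons, had 75.9 and 74.8 in amacrine cells, against 158 and 215 in bipolar cells. It was lower on both amacrine arrays, with a log2 fold change of -1.13 (adjusted p = 0.0136 by limma, SE 0.23), and the call was lost without MP bipolar replicate 2 (-0.93), with probe sets averaged and with no filter. Slc9a7, an exchanger of the Golgi and endosomes, had 107 and 164 in amacrine cells, against 289 and 230 in bipolar cells. Its groups did not overlap but it did not pass (-0.88, adjusted p = 0.0696). A brighter probe set shared with the transcript 6330509M05Rik, which was not used for that reason, had 231 and 258 in amacrine cells, against 556 and 603 in bipolar cells. Slc9a8 (0.10) and Slc9a9 (0.31), exchangers of internal membranes, and the scaffold Slc9a3r2 (0.21) did not pass, and Slc9a2, Slc9a3, Slc9a4 and the scaffold Slc9a3r1 were too dim. The probe sets of Slc9a9 disagreed, since a dimmer one, with 18.4 and 23.3 in amacrine cells and 58.8 and 71.8 in bipolar cells, gave -1.14 (adjusted p = 0.0183, limma over probe sets), so its direction was not settled.

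Of 12 tested acid-base partners, from 23 on the array, 4 were lower and none was higher in MP amacrine cells. Over all tested genes 6.92% were lower. This list, too, was drawn up with earlier results of these data known. Car2, the fast cytosolic carbonic anhydrase, had 157 and 120 in amacrine cells, against 244 and 289 in bipolar cells (-0.88, SE 0.24, adjusted p = 0.0459, limma). Slc16a1, which moves lactate together with protons, had 43.7 and 42.0 in amacrine cells, against 95.2 and 189 in bipolar cells (-1.36, SE 0.30). Both were lower on both amacrine arrays. The other called genes, Car8 and Car10, belong to carbonic anhydrase relatives that lack enzyme activity, and gave -3.58 and -3.88. Slc16a1 and Car8, which had 22.3 and 11.2 in amacrine cells and 269 and 506 in bipolar cells, were above the array median in bipolar cells only. They were tested through the group where they are high, so the count of 4 includes them by that route.

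**Figure D3:**
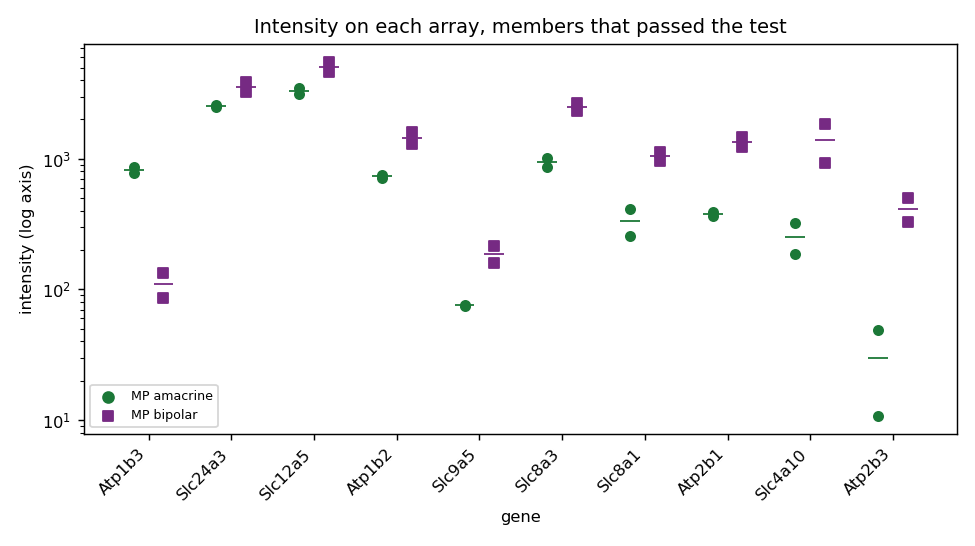
Intensity (log axis) on each array of the 10 members that passed the test, ordered by log2 fold change, MP amacrine as green circles and MP bipolar as purple squares, with lines at the group means. Amacrine and bipolar values separate for each gene, from Atp1b3 (860 and 774 in amacrine cells, 85.6 and 133 in bipolar cells) to Atp2b3 (48.5 and 10.8 in amacrine cells, 330 and 503 in bipolar cells). Heights of different genes cannot be compared.

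Of the chloride exporter and importer, Slc12a5 was lower in MP amacrine cells and Slc12a2 did not pass the test. Slc12a5 (KCC2), the neuronal chloride exporter, had intensities of 3485 and 3159 in amacrine cells, against 4622 and 5542 in bipolar cells. Slc12a2 (NKCC1), the chloride importer, had 1185 and 978 in amacrine cells, against 1428 and 1820 in bipolar cells. Neither gene's groups overlapped. Slc12a5 averaged 3322 ± 231 in amacrine cells and 5082 ± 651 in bipolar cells (SD, n = 2 each), a log2 fold change of -0.61 (SE 0.12, 95% interval -0.88 to -0.34) that passed (adjusted p = 0.0114, limma). Slc12a2 averaged 1082 ± 146 in amacrine cells and 1624 ± 277 in bipolar cells (SD, n = 2 each), a log2 fold change of -0.58 (SE 0.19, 95% interval -1.02 to -0.13) that did not pass (adjusted p = 0.100).

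The Slc12a5 value minus the Slc12a2 value on the log2 scale, taken within each array, was 1.54 and 1.67 in amacrine cells, against 1.68 and 1.6 in bipolar cells. The groups overlapped, and the group means lay -0.03 apart, less than the spread between replicates (SD 0.09 in amacrine and 0.06 in bipolar cells). The exact two-sided permutation p was 0.667, but with 2 arrays against 2 it cannot go below 0.333, so this test could not have passed and shows nothing about the balance. The level of this difference has no meaning of its own, since probe sets differ in response.

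The call of Slc12a5 was lost without MP bipolar replicate 2 (-0.48, adjusted p = 0.140), with probe sets averaged (-0.31), with no filter on dim genes and without an intensity trend in limma. The other probe sets of both genes were much dimmer, at 12.4 to 15.5 for Slc12a5 and 82.1 and 188 in amacrine cells, against 132 and 95.4 in bipolar cells, for the next brightest of Slc12a2, which gave 0.14.

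**Figure D4:**
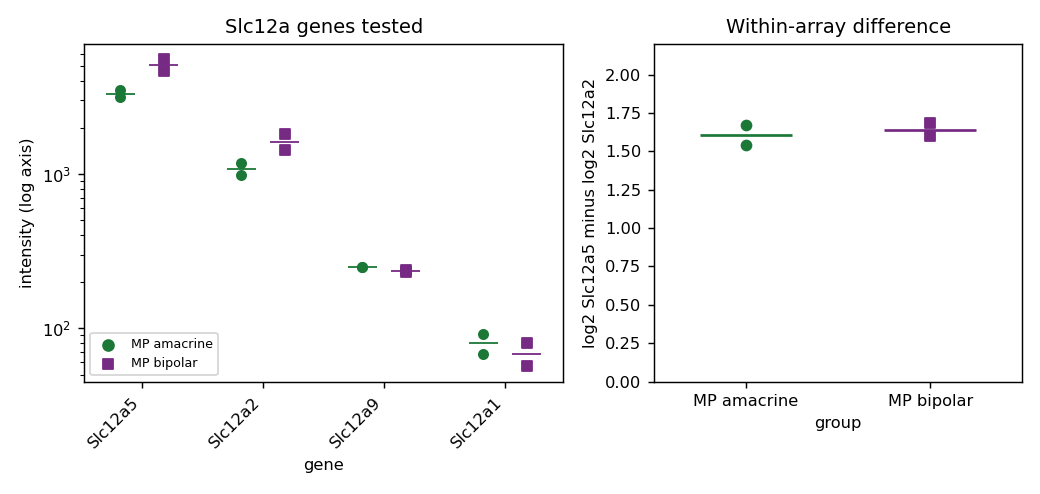
Left, intensity (log axis) on each array of the 4 tested Slc12a genes, MP amacrine as green circles and MP bipolar as purple squares, with lines at the group means. Right, the log2 value of Slc12a5 minus that of Slc12a2 on each array. The values of Slc12a5 and Slc12a2 do not overlap between the groups, while their difference does (1.54 and 1.67 in amacrine, 1.68 and 1.6 in bipolar cells).

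The other cotransporters of the family gave little signal. Slc12a9, whose transported ions are not established, had 250 and 249 in amacrine cells, against 237 and 232 in bipolar cells (0.08, 95% interval -0.41 to 0.57, adjusted p = 0.872). Slc12a1, the importer of the kidney loop, had 68.3 and 91.9 in amacrine cells, against 79.7 and 56.7 in bipolar cells, and its groups overlapped. Slc12a3, the kidney thiazide target, Slc12a4 (KCC1), Slc12a7 (KCC4) and Slc12a8 were too dim, with group means of at most 25.4.

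In the list of kinases and other chloride pathways the called genes were all higher, and Wnk4 was the only kinase among them. Of 24 tested, from 28 on the array, 5 were higher and none was lower in MP amacrine cells. Over all tested genes 6.54% were higher. The median log2 fold change was 0.27 in the list, against -0.03 over all tested genes. The list was drawn up with earlier results of these data known, so its share is no blind comparison. Wnk4, a kinase that acts on chloride cotransporters through Stk39 and Oxsr1, had 207 and 91.3 in amacrine cells, against 20.8 and 34.2 in bipolar cells. It was higher on both amacrine arrays, although they differed by more than the bipolar ones, with a log2 fold change of 1.85 (adjusted p = 0.0104 by limma, SE 0.35). It was above the array median in amacrine cells only, so it entered the test, and the count of 5, through the group where it is high. Neto2, a membrane protein that binds KCC2 and kainate receptors, had 390 and 446 in amacrine cells, against 185 and 168 in bipolar cells (1.17, SE 0.22, adjusted p = 0.0102). The growth factor Tgfb2 had 251 and 812 in amacrine cells, against 114 and 128 in bipolar cells (1.78, SE 0.47). Its high array was MP amacrine replicate 2. The semaphorin receptor Nrp2 (1.14) and Ano6, a lipid scramblase with channel activity (0.90), were the other called genes.

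The kinases downstream of the WNK family, and most chloride channels, did not pass. Stk39 (SPAK) had 50.3 and 57.8 in amacrine cells, against 69.4 and 38.0 in bipolar cells, a log2 fold change of 0.04 with a 95% interval from -0.56 to 0.65. Oxsr1 gave 0.04 as well, with an interval from -0.45 to 0.54. Wnk1 (-0.09), Wnk2 (0.32) and Wnk3 (0.54, adjusted p = 0.167) did not pass either. Among the channel and exchanger genes of the Clcn family, 6 of 6 tested did not pass, where 13.5% of all tested genes did. Their log2 fold changes ran from -0.92 for Clcn6 (adjusted p = 0.0576, limma) to 0.21 for Clcn4.

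**Figure D5:**
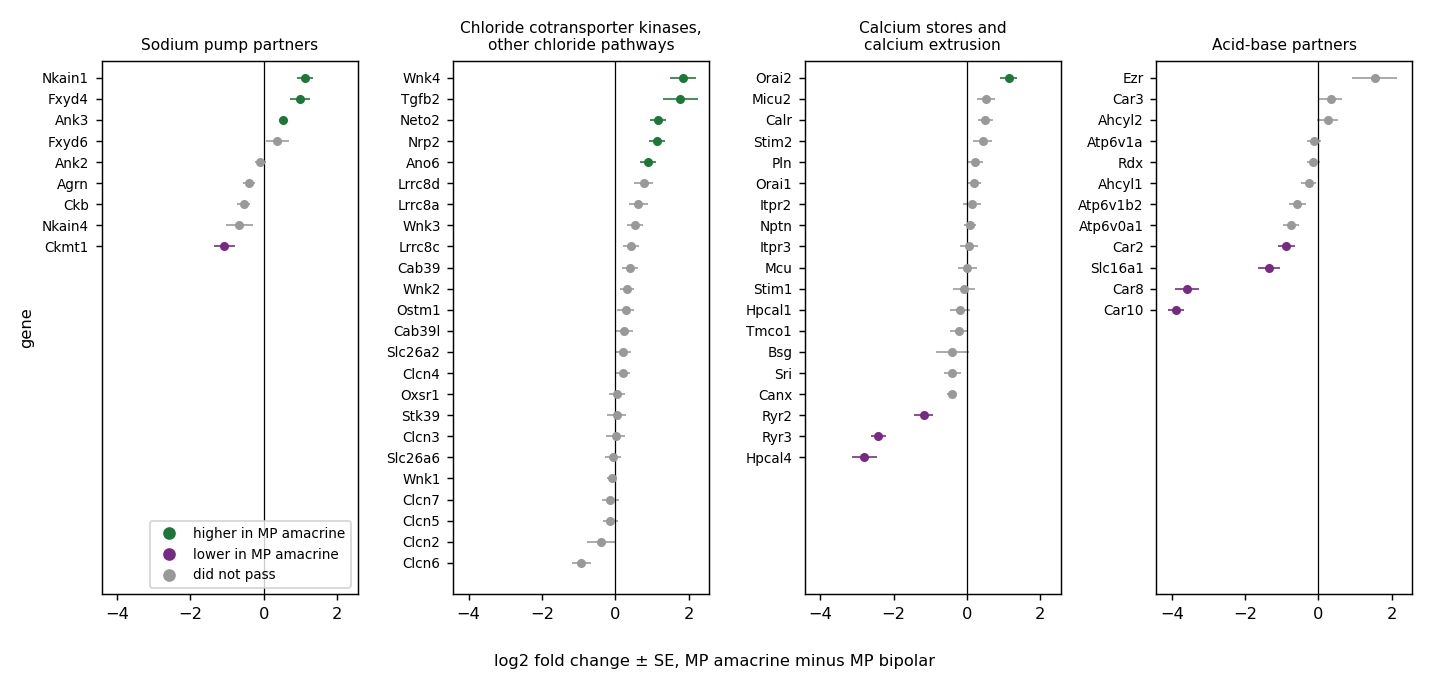
Log2 fold change (MP amacrine minus MP bipolar, horizontal axis) of the tested genes in 4 partner lists, with bars of ± 1 SE from limma and 2 arrays per group. Colour shows whether the adjusted p was under 0.05. The 5 called genes in the list of kinases and other chloride pathways are all on the higher side. Wnk4 is the only kinase among them. The 4 called acid-base genes are all on the lower side, while pump and calcium partners include both.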

How the data were processed

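The authors deposited an intensity for each of 45101 probe sets on each array, on a linear scale and without detection calls. Their summary, background and scaling methods were not stated in the sources used here. Per the labels' protocols, RNA was amplified in 2 rounds before hybridisation, so differences can carry amplification noise. Array medians lay between 44.5 and 47.1, and the number of arrays limits the precision of every value.

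After 64 control probe sets were left out, the platform annotation named exactly 1 gene for 34945 probe sets, several for 932 and none for 9160. Of 18193 genes, 18032 had their identifier in RefSeq, and 0 symbols needed an update. Genes whose brightest probe set exceeded the array median on at least 2 arrays were tested (11583). MP amacrine was set against MP bipolar on log2(intensity + 16), which understates differences of dim genes, with limma 3.58.1 in R 4.3.3 (eBayes with an intensity trend, 2 residual degrees of freedom), two-sided, with Benjamini-Hochberg adjustment over all tested genes. The test was first tried on simulated data. Samples were grouped by title.

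All members could be named, and from each of the 4 partner lists up to 6 called genes. Fxyd6, the Itpr, Wnk, Stk39, Oxsr1 and Clcn genes that were not called, Nefm, Gnat1, Nrl and Pde6b were chosen after their values were seen. So were Thy1, Prdm8, Isl1, Fezf2, Scgn, Clu and the mention of horizontal cell markers. Of the differences taken within each array, only that of Slc12a5 and Slc12a2 was planned. The members and lists were chosen with earlier results of these data known. Alternatives covered array scaling, the offset, the filter, the probe set, the moderation, array weights, the replicate number as a block and each array left out.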

Additional observations from a re-analysis of the deposited data

How the results depend on the processing

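Over all genes, 1559 calls became 785 with no filter and 830 with the second brightest probe set, and 917 to 1939 with each array left out, lowest without MP bipolar replicate 2. The 9 members lower in MP amacrine cells became 3 with no filter, 4 with probe sets averaged, 3 with the second brightest probe set, and 5 to 9 with each array left out (Slc9a7 added without MP amacrine replicate 2, Slc4a8 without MP amacrine replicate 1). The 1 higher member became 2 with quantile scaling, 2 with cyclic loess (Atp2b2 added in both) and 2 with the replicate block (Atp2b4 added), and 1 to 2 with each array left out (Atp2b4 added without MP amacrine replicate 1, Atp1b1 without MP amacrine replicate 2). The Slc12a5 fold change lost its call with no filter (-0.61), without an intensity trend (-0.61), with probe sets averaged (-0.31) and without MP bipolar replicate 2, and ranged from -0.74 to -0.48 over the arrays left out. With the second brightest probe set Slc12a2 gave 0.14, and with probe sets averaged the Slc12a5 minus Slc12a2 difference gave -0.18. No called member changed sign under any alternative. Among uncalled members the sign turned with the second brightest probe set for Atp2a2 (0.50), Slc12a9 (-0.34) and Slc9a8 (-0.0478), and with probe sets averaged for Slc12a9 (-0.13), Slc8a2 (0.0947) and Slc9a9 (-0.21). It also turned within the range over arrays left out for Atp1b1 (-0.16 to 1.49), Slc12a1 (-0.0050 to 0.39), Slc4a1ap (-0.63 to 0.11), Slc8a2 (-0.76 to 0.54) and Slc9a8 (-0.18 to 0.37). The cause of these changes was not tested. Atp1b3, Atp2b1 and Atp2b3 kept their calls under every alternative that tested them. Atp1b3 and Slc4a10 have 1 probe set each, so alternatives in the choice of probe set could not change their fold changes. The other probe set of Atp2b3 lay below the filter and was not tested singly. The replicate block gave 1932 calls over all genes and 10 lower members (Slc9a7 added). The labels do not say that a replicate number marks a litter shared by both groups. Deviations of same-numbered arrays had a correlation of -0.04 across genes, which with 2 arrays per group cannot settle whether they belong together. With array weights the members' counts of calls were the same as above. Both amacrine arrays got a weight of 0.78 and both bipolar arrays 1.28, so this alternative could not down-weight a single array.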
